A study of Homo sapiens with 12 samples.

Results

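Actin and tubulin mRNAs and the mRNAs of a pair of actin regulators were followed in HEK293T cells that lacked or carried the RNA-binding protein Staufen1 (STAU1). The 6 genes were ACTB and ACTG1 (cytoplasmic beta- and gamma-actin), TUBA1B and TUBB (alpha- and beta-tubulin), CFL1 (cofilin) and PFN1 (profilin), with RefSeq gene IDs 60, 71, 10376, 203068, 1072 and 5216. A member was every poly(A) site on the gene's strand within 1000 nt of a given 3′ end, whatever its counts. All 6 genes had at least 50 reads in each of the 4 fraction libraries, and 5 of the 6 did so in the 8 pull-down and input libraries, where TUBB had 0 sites. Sites with at least 10 reads in any library numbered 16 of 640413 sites in the pull-down table and 11 of 189010 in the fraction table. HEK293T is an established human embryonic kidney line, and each read of the 3′READS+ assay marks the 3′ end of a polyadenylated RNA, so counts per gene need no scaling by length.

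The STAU1 pull-down (STAU1 IP) and the STAU1 input came from the STAU1-KO line C8, made by double nicking with Cas9n, after transient expression of STAU1-FLAG. The GFP pull-down (GFP IP) and the GFP input came from the same KO line after transient expression of FLAG-GFP. Both pull-downs used an anti-FLAG antibody on total-cell lysate, all 8 of these libraries therefore lack endogenous STAU1 by label, and each of the 4 groups had 2 replicates. The fractions were KO polysome, KO cytoplasm, WT polysome and WT cytoplasm, from the STAU1-KO line and its isogenic wild-type control C9, with no transfection named and 1 library each. Whether replicates 1 and 2 were separate cultures is not stated in the labels, so a p-value here reflects the spread between libraries alone, and KO and WT each rest on 1 line.

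STAU1 is a double-stranded-RNA-binding protein that recognises structures in mRNAs, many of them in 3′ UTRs, and acts in mRNA decay, localisation and translation. Actin monomers polymerise into filaments; profilin binds monomers and promotes their addition to growing filament ends, and cofilin severs filaments and speeds their disassembly. Alpha- and beta-tubulin form the heterodimer from which microtubules are built, and tubulin mRNAs are subject to a co-translational decay that responds to the pool of free tubulin. These genes are highly expressed in most dividing cells and several of them are widely used as reference genes.

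Total counts in the pull-down table were 6212606 and 5727812 in STAU1 IP, 5567893 and 9655646 in STAU1 input, 1291888 and 1245270 in GFP IP and 7636541 and 8932299 in GFP input. The fraction libraries held 2799226 to 3483937 counts. GFP IP was thus the shallowest group, and PFN1 had its lowest count there, 58 reads. Actin, tubulin, cofilin and profilin genes have processed pseudogenes, and the sources used here do not say how reads with several matches were handled, so the levels of these genes carry that uncertainty.

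The members lay on 5 chromosomes of hg19, and each is given with its window, main 3′ end and strand. ACTB was read in 7:5565779-5567779 on the minus strand, with its main end at 5566780. ACTG1 was read in 17:79475997-79477997 on the minus strand, with its main end at 79476999. TUBA1B was read in 12:49520566-49522566 on the minus strand, with its main end at 49521569. TUBB was read in 6:30692195-30694195 on the plus strand, with ends at 30692353 and 30693193 that lie 840 nt apart. CFL1 was read in 11:65621285-65623285 on the minus strand, with a distal end at 65622290 and a proximal end 104 nt upstream at 65622394. PFN1 was read in 17:4847945-4849945 on the minus strand, with its main end at 4848952. Exon and UTR boundaries were not used here, because the gene tables at hand are of another genome build.

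All 5 members measured in the pull-down libraries were lower in STAU1 IP than in STAU1 input, to between 0.387-fold (PFN1) and 0.589-fold (ACTB). In the GFP comparison ACTG1, TUBA1B, CFL1 and PFN1 were lower in GFP IP than in GFP input, and ACTB did not pass the test. None of the 5 passed the test of the difference between both comparisons. Levels below are in CPM, a window's reads scaled to a common library size after TMM normalization, unless another scale is named, and "passed" means an adjusted p under 0.05 in edgeR's quasi-likelihood test with Benjamini-Hochberg adjustment over 26605 windows.

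**Figure D1:**
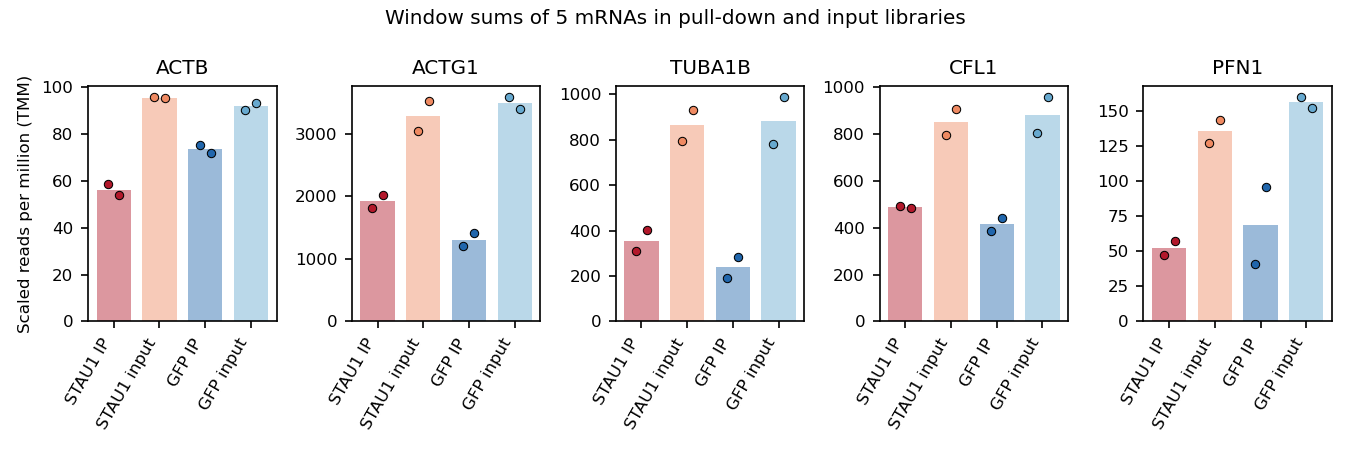
Levels of 5 members in TMM-scaled CPM (vertical axes), with bars for the mean of 2 libraries and points for single libraries of STAU1 IP, STAU1 input, GFP IP and GFP input. Every STAU1 IP point lies below both STAU1 input points of its gene, and the ACTB panel has the smallest gap between GFP IP (71.8 and 75.1) and GFP input (90.3 and 93.2). The share of all windows separated like this was not computed.

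The actins differed widely in level. ACTG1 stood at 1812 and 2022 CPM in the STAU1 IP libraries, against 3048 and 3514 in STAU1 input, and at 1210 and 1404 in GFP IP, against 3581 and 3385 in GFP input. Both pull-downs lay below both of their inputs, and ACTG1 ranked between 36 and 84 of 26605 windows by level in every one of the 8 libraries. ACTB stood at 58.5 and 53.9 in STAU1 IP, against 95.6 and 95.3 in STAU1 input, and at 75.1 and 71.8 in GFP IP, against 90.3 and 93.2 in GFP input. ACTB levels also did not overlap between pull-down and input in either comparison, and it ranked between 1598 and 2656. Its fold distance from input was smaller than that of ACTG1 in the GFP comparison (0.801-fold against 0.375-fold). In the STAU1 comparison the actins were nearly equal (0.589-fold for ACTB against 0.584-fold for ACTG1). The share of all windows separated in this way was not computed, here or for the members below, and 2 libraries against 2 can separate by chance. The log2 ratio of STAU1 IP to STAU1 input was −0.78 ± 0.15 for ACTG1 (SE; edgeR quasi-likelihood, Benjamini-Hochberg adjusted p = 0.00237) and −0.76 ± 0.22 for ACTB (adjusted p = 0.0355 in the same edgeR test). The call for ACTB was not kept without any 1 of its 4 libraries, although the log2 ratio stayed near that value. With STAU1 IP replicate 1 left out it was −0.82 (edgeR adjusted p = 0.173), and with IP replicate 2 left out −0.71 (edgeR adjusted p = 0.267). With STAU1 input replicate 1 left out it was −0.82 (edgeR adjusted p = 0.126), and with input replicate 2 left out −0.78 (edgeR adjusted p = 0.0970). The call was also not kept with library totals in place of TMM (log2 −0.51, edgeR adjusted p = 0.154) or without a filter on low counts (log2 −0.99, edgeR adjusted p = 0.110). In the GFP comparison the log2 ratio of IP to input was −1.41 ± 0.15 for ACTG1 (edgeR adjusted p = 6.32e-06) and −0.32 ± 0.23 for ACTB (edgeR adjusted p = 0.493), and the sign of the ACTB value turned with library totals, to 0.06.

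TUBA1B, one of the alpha-tubulin genes, stood at 310 and 401 CPM in STAU1 IP, against 794 and 932 in STAU1 input, and at 191 and 284 in GFP IP, against 780 and 988 in GFP input. No pull-down library reached an input library, and the lowest level was in GFP IP replicate 1. Its log2 ratio of IP to input was −1.28 ± 0.21 with STAU1 (edgeR quasi-likelihood, Benjamini-Hochberg adjusted p = 0.000413) and −1.90 ± 0.21 with GFP (edgeR adjusted p = 9.09e-06). Among the 5 members this was the lowest log2 ratio in the GFP comparison. TUBB, which encodes a beta-tubulin partner of TUBA1B in the dimer, gives no value here. The pull-down table listed only 6 sites with 22 reads between 30 and 31 Mb of chromosome 6, against 311 sites with 34889 reads in the fraction table. The pull-down table also listed 7 alternative chromosome 6 haplotypes, with 262 sites and 3841 reads, and the fraction table listed none; the part of these haplotypes in the missing TUBB counts was not tested.

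CFL1 stood at 493 and 483 CPM in STAU1 IP, against 798 and 908 in STAU1 input, and at 387 and 443 in GFP IP, against 805 and 958 in GFP input. The 4 pull-down libraries all lay below the 4 inputs. PFN1 stood at 47.3 and 57.3 in STAU1 IP, against 127 and 143 in STAU1 input, and at 41.1 and 95.6 in GFP IP, against 159 and 152 in GFP input. The GFP IP replicates of PFN1 lay far apart, with 58 and 129 reads behind them, though both were below the inputs. The log2 ratios of STAU1 IP to STAU1 input were −0.81 ± 0.17 for CFL1 and −1.37 ± 0.28 for PFN1 (edgeR quasi-likelihood, Benjamini-Hochberg adjusted p = 0.00420 and 0.00332). In the GFP comparison they were −1.09 ± 0.17 for CFL1 (edgeR adjusted p = 0.000295) and −1.19 ± 0.29 for PFN1 (edgeR adjusted p = 0.0118). The PFN1 value in the GFP comparison was −0.71 without GFP IP replicate 1 (edgeR adjusted p = 0.320), −1.97 without GFP IP replicate 2, and −0.81 with library totals (edgeR adjusted p = 0.104). The PFN1 window also held reads on the opposite strand, 1526 and 1086 in STAU1 IP, 884 and 1610 in STAU1 input, 300 and 231 in GFP IP and 1537 and 1425 in GFP input. These were not counted for PFN1, and no other member had more than 1 such read in a library.

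Read against the table as a whole, 5 of 5 members were lower in STAU1 IP than in STAU1 input where 4.07% of the 26605 windows were, and 22.0% of the 2355 windows at an average log2 CPM of at least 6. Their median log2 ratio was −0.81, against 0.12 over all windows and −0.06 over the more abundant ones. In the GFP comparison 4 of 5 members were lower, where 5.13% of all windows and 30.6% of the more abundant windows were. The members' median there was −1.19, against −0.13 over all windows and −0.30 over the more abundant ones. ACTG1, TUBA1B and CFL1 averaged a log2 CPM above 8. Of the 575 windows at 8 or more, 202 were lower with STAU1 and 238 with GFP, with median log2 ratios of −0.21 and −0.37. By percentile of the log2 ratio among all windows, the members lay between 12.4 (PFN1) and 23.4 (ACTB) in the STAU1 comparison. In the GFP comparison they lay between 12.1 (TUBA1B) and 44.1 (ACTB). Each comparison had windows in both directions: 1033 were higher and 1082 lower in STAU1 IP than in STAU1 input, and 685 were higher and 1365 lower in GFP IP than in GFP input. The median over all windows moved with the scaling, to 0.38 in the STAU1 comparison and 0.23 in the GFP comparison with library totals, where 1713 of 2378 and 1320 of 1990 passing windows were higher. Relative to the median of all windows, the members' log2 ratios in the STAU1 comparison ran from −0.88 (ACTB) to −1.49 (PFN1), and in the GFP comparison from −0.19 (ACTB) to −1.76 (TUBA1B).

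**Figure D2:**
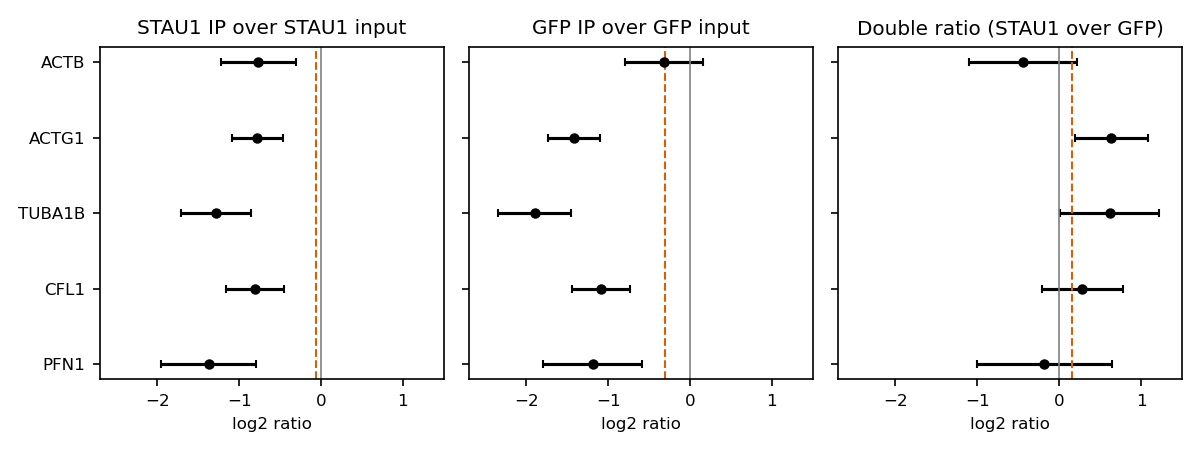
Log2 ratios of 5 members (points) with 95% intervals (bars) in the STAU1 comparison (IP over input), the GFP comparison (IP over input) and their difference; the dashed line is the median of the windows at an average log2 CPM of at least 6. All points of the STAU1 panel lie between −0.76 and −1.37, and the points of the difference panel lie on both sides of 0.

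The difference between the STAU1 and GFP comparisons asks which RNAs the STAU1-FLAG pull-down held beyond the FLAG-GFP background. It was positive for ACTG1 (0.64 ± 0.21 on the log2 scale, 95% interval 0.20 to 1.08; edgeR quasi-likelihood, Benjamini-Hochberg adjusted p = 0.174) and for TUBA1B (0.61 ± 0.29; edgeR adjusted p = 0.381). It was 0.28 ± 0.24 for CFL1 (edgeR adjusted p = 0.691), −0.18 ± 0.40 for PFN1 (edgeR adjusted p = 0.918) and −0.44 ± 0.31 for ACTB (edgeR adjusted p = 0.616). With edgeR's quasi-likelihood test 0 of 5 members passed, where 1.3% of all windows did. Of the 2355 windows at an average log2 CPM of at least 6, 161 passed with a positive and 39 with a negative difference. At an unadjusted p under 0.05 the count was 2 of 5, ACTG1 and TUBA1B, and 3400 of 26605 windows. DESeq2 called 1 member, ACTG1 (log2 0.52, DESeq2 adjusted p = 0.0377), and 762 of all 26605 windows. ACTG1 was also called by edgeR without a filter on low counts (0.83, edgeR adjusted p = 3.13e-06), where 345 of 486122 windows were. It was called as well without STAU1 input replicate 2 (0.79), a fit that leaves 1 STAU1 input library. In these edgeR settings the median over all windows tested was 2.03 without the filter and 1.08 without that library, so ACTG1 lay below it. The unfiltered median is over 486122 windows of any level, so it is no level-matched reference for ACTG1. With DESeq2 the median over all windows was 0.14, and ACTG1 lay above it. In the full fit the median over all windows was 0.27 and the members' median 0.28. Over the 2355 more abundant windows the median was 0.16. Among the 575 windows at a log2 CPM of 8 or more, ACTG1 lay at percentile 82.1, TUBA1B at 80.7 and CFL1 at 64.5. On the same scale PFN1 lay at 34.6 and ACTB at 17.0, though both averaged a log2 CPM below 8.

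The inputs of STAU1-FLAG and FLAG-GFP cells were close. The log2 ratio of STAU1 input to GFP input lay between −0.20 ± 0.27 (PFN1) and 0.06 ± 0.22 (ACTB). No member passed edgeR's quasi-likelihood test (Benjamini-Hochberg adjusted p = 1 for each), none had an unadjusted p under 0.05, and DESeq2 called 0, where 0.0113% of all windows passed with edgeR. The 95% intervals were −0.77 to 0.36 for PFN1, −0.45 to 0.39 for TUBA1B and −0.40 to 0.30 for CFL1. They were −0.40 to 0.23 for ACTG1 and −0.39 to 0.51 for ACTB, so changes of that size in either direction are not excluded. The order of the levels in the inputs was ACTG1, then CFL1 and TUBA1B, then PFN1, then ACTB: CFL1 averaged 853 ± 77.4 and TUBA1B 863 ± 97.9 in STAU1 input (SD, n = 2), which do not differ beyond their spread. In STAU1 input PFN1 averaged 135 ± 11.8 and ACTB 95.4 ± 0.279, and every input library had PFN1 above ACTB.

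A ratio of a pair of members within a library does not depend on the scaling. ACTG1 had 31.0 and 37.5 reads per ACTB read in STAU1 IP, against 31.9 and 36.9 in STAU1 input. In GFP IP it had 16.1 and 19.5, against 39.7 and 36.3 in GFP input. The GFP pull-down thus stood apart from the other 6 libraries, with means of 17.8 ± 2.43 in GFP IP and 38.0 ± 2.38 in GFP input (SD, n = 2 each), while STAU1 IP averaged 34.2 ± 4.61 and STAU1 input 34.4 ± 3.55. With 2 libraries against 2, no exact two-sided permutation test can go below p = 0.333, so the groups are described by their libraries. CFL1 had 10.4 and 8.44 reads per PFN1 read in STAU1 IP, against 6.29 and 6.33 in STAU1 input, and 9.41 and 4.64 in GFP IP, against 5.05 and 6.31 in GFP input. The STAU1 IP values lay above both inputs, and the GFP IP values lay on either side of theirs.

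**Figure D3:**
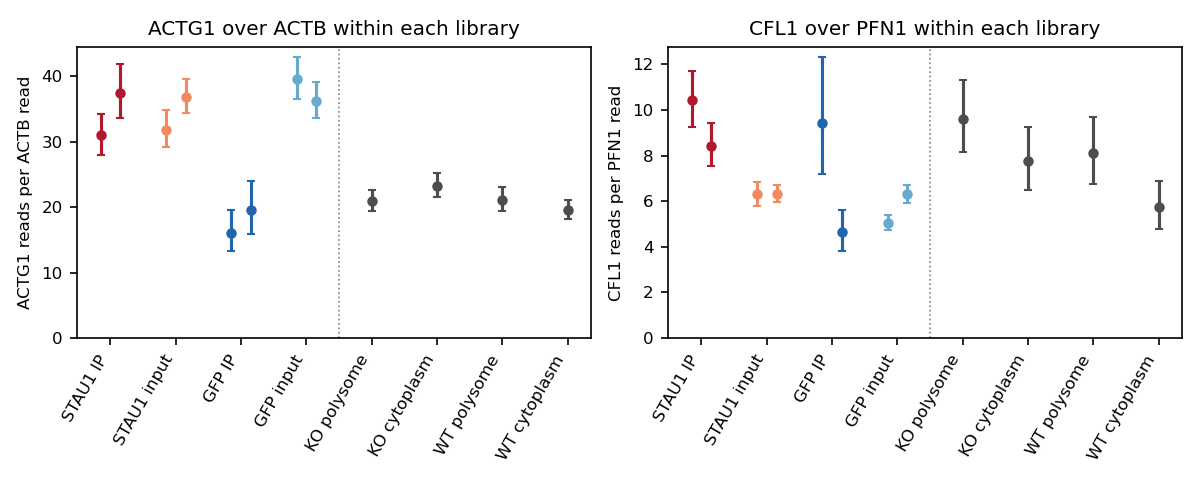
Reads of ACTG1 per ACTB read and of CFL1 per PFN1 read in each of the 12 libraries, with 95% intervals for counting error; a dotted line separates the pull-down from the fraction table. The ACTG1 to ACTB ratio is 16.1 and 19.5 in GFP IP and 31.0 or higher in the other 6 libraries of that table.

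The windows with a pattern most like a member's over the 8 libraries were named by the Pearson correlation of log2 levels among 572 candidates, as a description, since the points share pull-down or input, and depth. For ACTG1 the 3 most alike were at 15+ 69747884 (r = 0.99), 16+ 450647 (0.98) and 9− 19376254 (0.98). The window at 9− 19376254 was also among the 3 for TUBA1B (0.99) and CFL1 (0.99), and the window at 5− 180663937 for TUBA1B (0.98) and CFL1 (0.99). ACTB shared none of its 3 with another member, and the nearest was at 16+ 2011976 (0.99). PFN1 shared none either, and its nearest was at 2+ 85133794 (0.97).

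ACTB, ACTG1, TUBA1B and PFN1 each ended almost wholly at 1 site. Their main end took at least 95.9% of the gene's reads in every pull-down and input library and at least 96.9% in every fraction. Tested site by site over 33744 sites, the main ends of ACTG1, TUBA1B, CFL1 and PFN1 were lower in STAU1 IP than in STAU1 input, 4 of the 5 main ends where 3.0% of all sites were. ACTB's main end did not pass (log2 −0.67 ± 0.22, edgeR quasi-likelihood, Benjamini-Hochberg adjusted p = 0.0905). In the GFP comparison the same 4 of 5 main ends passed, where 3.81% of all sites did. Both shares are over sites of all levels, and the share among sites as abundant as the main ends was not computed. For windows, the share lower rose at the more abundant level from 4.07% to 22.0% with STAU1 and from 5.13% to 30.6% with GFP.

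CFL1 was the member with alternative ends in the pull-down table. The distal end at 65622290 held 79.6% and 79.6% of CFL1 reads in STAU1 IP, against 82.4% and 80.2% in STAU1 input, and 78.9% and 70.2% in GFP IP, against 77.6% and 77.6% in GFP input. The proximal end at 65622394 held 18.0% and 18.8% in STAU1 IP, against 16.3% and 18.3% in STAU1 input, and 19.8% and 25.9% in GFP IP, against 20.3% and 21.1% in GFP input. GFP IP replicate 2 had the lowest distal share, and the other 7 libraries lay between 77.6% and 82.4%. The log2 ratio of STAU1 IP to STAU1 input was −0.74 ± 0.17 at the distal end (edgeR quasi-likelihood, Benjamini-Hochberg adjusted p = 0.0102) and −0.63 ± 0.23 at the proximal end (edgeR adjusted p = 0.136). In the GFP comparison both ends were lower in GFP IP, with log2 ratios of −1.07 ± 0.17 at the distal end (edgeR adjusted p = 0.000575) and −0.85 ± 0.24 at the proximal end (edgeR adjusted p = 0.0422); the difference between the ends was not tested.

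In the fractions the members are described without a test, since each group is 1 library. A ratio carries a 95% interval for counting error only, and a change of 1.5-fold or more among the 4785 windows with at least 50 reads in each library is called past the fold. The order of levels was ACTG1, TUBB, TUBA1B, CFL1, ACTB and PFN1 in KO cytoplasm and in WT cytoplasm. ACTG1 stood at 3379 CPM in KO polysome and 5046 in KO cytoplasm, and at 3749 in WT polysome and 5667 in WT cytoplasm. TUBB stood at 1301 in KO polysome and 2082 in KO cytoplasm, and at 1117 in WT polysome and 2224 in WT cytoplasm. Both were lower in polysome than in cytoplasm of the same cells.

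TUBA1B stood at 1164 CPM in KO polysome and 1431 in KO cytoplasm, and at 1424 in WT polysome and 1384 in WT cytoplasm. CFL1 stood at 389 in KO polysome and 342 in KO cytoplasm, and at 361 in WT polysome and 305 in WT cytoplasm, with TMM scaling the only member higher in polysome in both lines. ACTB stood at 161 in KO polysome and 217 in KO cytoplasm, and at 177 in WT polysome and 290 in WT cytoplasm. PFN1 stood at 40.5 in KO polysome and 44.1 in KO cytoplasm, and at 44.6 in WT polysome and 53.2 in WT cytoplasm, on 132 to 159 reads a library.

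TUBB had the lowest log2 ratio of polysome to cytoplasm, −0.68 (−0.73 to −0.63) in KO cells and −0.99 (−1.05 to −0.93) in WT cells. ACTG1 had −0.58 (−0.61 to −0.55) in KO cells and −0.60 (−0.63 to −0.56) in WT cells, and ACTB −0.42 (−0.58 to −0.27) in KO cells and −0.71 (−0.87 to −0.55) in WT cells. CFL1 had 0.19 (0.07 to 0.30) in KO cells and 0.25 (0.11 to 0.38) in WT cells. The intervals of TUBA1B in WT cells and of PFN1 in both lines included 0. TUBB was past the fold in KO cells, 1 of 6 members where 12.4% of windows were lower by as much; TUBB, ACTG1 and ACTB were in WT cells, 3 of 6 where 16.0% were. ACTG1 lay at the edge of the fold, and in WT cells it was within it with RLE size factors (−0.58) and with its main site alone (−0.57), which leaves 2 of 6. The members' median was −0.36 in KO cells and −0.43 in WT cells, against 0.01 and −0.05 over all windows. With library totals the median of all windows moved to 0.22 in KO cells and 0.24 in WT cells; TUBB in WT cells then remained past the fold (log2 −0.71), and the values of PFN1 turned positive, to 0.10 in KO cells and 0.03 in WT cells.

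**Figure D4:**
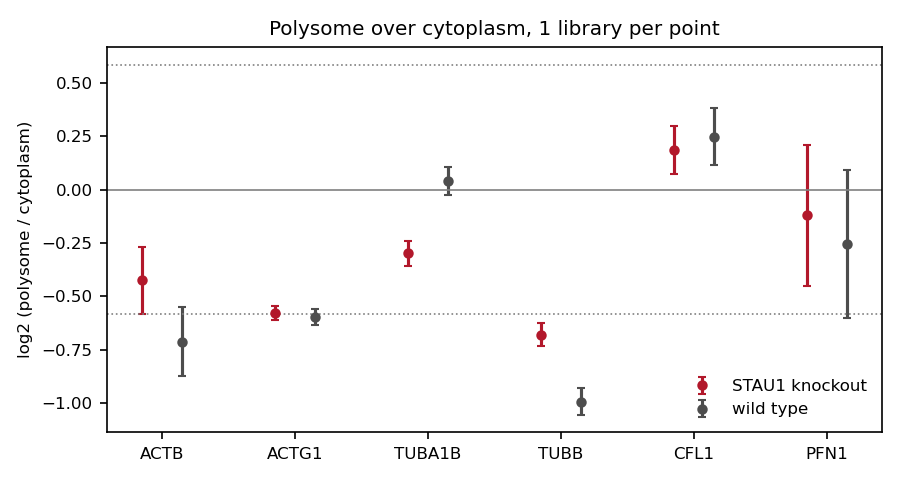
Log2 ratio of polysome to cytoplasm for 6 members, KO in red left of WT in grey, 1 library per fraction, with bars for the 95% counting interval and dotted lines at 1.5-fold. TUBB is lowest in both lines (−0.68 in KO and −0.99 in WT), and TUBA1B and TUBB differ between the lines in opposite directions.

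Between the lines, 0 of 6 members were past 1.5-fold in cytoplasm, where 19.5% of windows were, in polysomes, where 13.4% were, or in the difference of the polysome-to-cytoplasm ratios, where 11.5% were. In cytoplasm the log2 ratio of KO to WT was −0.42 (−0.57 to −0.27) for ACTB and between −0.27 and 0.17 for the other 5 members, and in polysomes it lay between −0.29 (TUBA1B) and 0.22 (TUBB). The ratio of TUBB to TUBA1B reads was 1.12 in KO polysome and 1.46 in KO cytoplasm, and 0.785 in WT polysome and 1.61 in WT cytoplasm. Counted at the main end of each gene alone, it was 0.770 (95% counting interval 0.737 to 0.805) in KO polysome and 1.02 (0.978 to 1.06) in KO cytoplasm, and 0.537 (0.510 to 0.565) in WT polysome and 1.06 (1.01 to 1.11) in WT cytoplasm. By either count the ratio was lower in polysome than in cytoplasm of each line. The main-end values of both cytoplasm libraries overlapped in their intervals. The intervals of the window sums did not, with 1.40 to 1.51 in KO cytoplasm and 1.54 to 1.68 in WT cytoplasm. ACTG1 had 20.9 reads per ACTB read in KO polysome and 23.3 in KO cytoplasm, and 21.1 in WT polysome and 19.5 in WT cytoplasm.

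End use in the fractions was mixed for CFL1 and TUBB. The distal end of CFL1 held 47.2% (Wilson 95% interval 44.7 to 49.7) of its reads in KO polysome and 43.0% (40.1 to 46.0) in KO cytoplasm, and 39.7% (36.8 to 42.7) in WT polysome and 34.6% (31.3 to 38.0) in WT cytoplasm. It was higher in KO than in WT in each fraction and in polysome than in cytoplasm in each line. In cytoplasm the log2 ratio of KO to WT was 0.49 (0.28 to 0.71) at the distal end and −0.02 (−0.20 to 0.15) at the proximal end. In polysomes it was 0.36 (0.19 to 0.53) at the distal end and −0.08 (−0.23 to 0.08) at the proximal end. TUBB used its proximal end for 68.9% of reads in KO polysome and 69.9% in KO cytoplasm, and for 68.3% in WT polysome and 66.1% in WT cytoplasm. In cytoplasm its log2 ratio of KO to WT was −0.003 (−0.07 to 0.06) at the proximal end and −0.26 (−0.35 to −0.17) at the distal end, and in polysomes 0.24 (0.16 to 0.31) at the proximal end and 0.20 (0.08 to 0.31) at the distal end. Its log2 ratio of polysome to cytoplasm was −0.68 (−0.74 to −0.62) at the proximal and −0.61 (−0.71 to −0.51) at the distal end in KO cells, and −0.92 (−0.99 to −0.84) at the proximal and −1.07 (−1.18 to −0.96) at the distal end in WT cells.

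**Figure D5:**
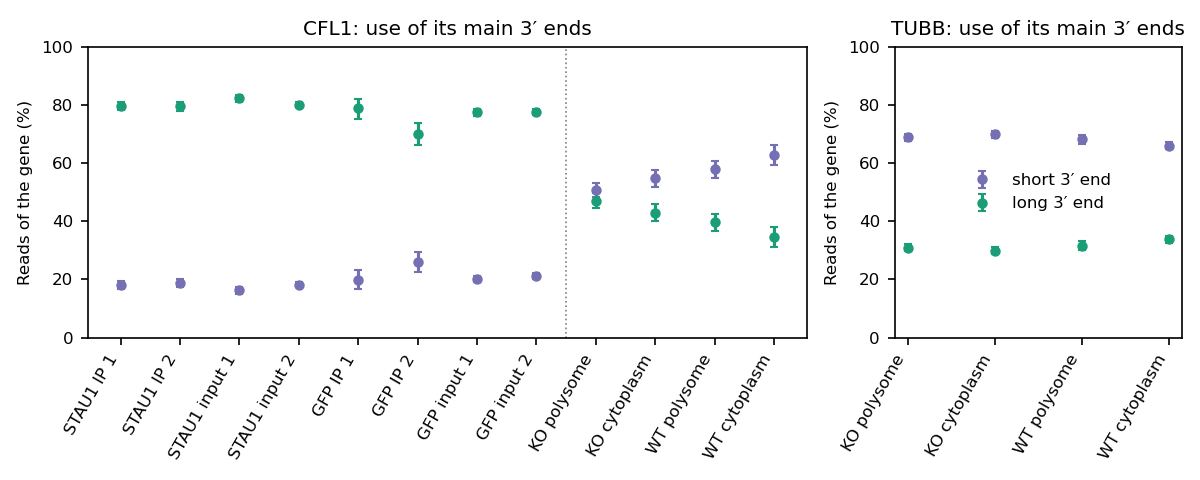
Share of reads (percent) at the proximal (short) and distal (long) ends of CFL1 in all 12 libraries and of TUBB in the 4 fractions, with Wilson 95% intervals for counting error. The distal end of CFL1 holds 70.2% to 82.4% in the pull-down table and 34.6% to 47.2% in the fractions.

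Levels set across the tables rest on separate processing and on other cells and lysates, which cannot be told apart. The share of the distal end of CFL1 among the reads of its main 2 ends was 40.4% over both cytoplasm libraries and 80.5% over the 4 inputs. This difference of −40.1 points compares with a median of 0.69 points over 2375 windows with 2 ends. Their 5th and 95th percentiles were −28.9 and 22.0, and 3.24% of those windows were at or below the CFL1 value. For these windows the share was that of the end ranked first in the pull-down table, whether distal or proximal. For CFL1 that is the distal end. The end was thus chosen on the input side of the difference, and how well each end was covered in cytoplasm is not given here. Ends were matched between the tables by identical position, and an end without such a match counted as having no reads in cytoplasm. Both CFL1 ends had reads at the same position in each table. The 3.24% is a description under that choice of end and that matching, and the part of unmatched ends in it was not tested. On the scale of CPM without TMM scaling, the proximal end of CFL1 stood at 182 in KO cytoplasm and 166 in WT cytoplasm and at 121 to 167 in the inputs, while the distal end stood at 143 in KO cytoplasm and 91.2 in WT cytoplasm and at 547 to 625 in the inputs. ACTB stood at 210 in KO cytoplasm and 252 in WT cytoplasm, against 85.3 ± 4.88 in STAU1 input and 77.9 ± 1.62 in GFP input (SD, n = 2 each). PFN1 stood at 42.7 in KO cytoplasm and 46.1 in WT cytoplasm, against 120 ± 3.96 in STAU1 input and 132 ± 10.3 in GFP input, so that ACTB and PFN1 changed places in the order of levels between the tables.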

How the data were processed

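Poly(A)-selected RNA of 12 HEK293T libraries was sequenced with 3′READS+. The values the authors deposited are raw counts at poly(A) sites, in 1 table for pull-downs (640413 sites) and another for fractions (189010 sites). The submitters' processing notes name STAR and hg19; the clustering of reads into sites is described in none of the sources used here. Counts were summed in windows of 1000 nt on each side of the 6 member positions and, for all other sites, around the site with the most reads left, each site entering 1 window. R 4.3.3 and edgeR 4.0.16 served to test windows (quasi-likelihood, TMM, filterByExpr by group, 4 groups, 4 residual degrees of freedom, limma 3.58.1 loaded), with Benjamini-Hochberg adjustment over 26605 windows, a threshold of 0.05, and all 8 libraries in the fit; single sites were fitted alike over 33744 sites. DESeq2 1.42.0, other scalings, filters, windows and left-out libraries were alternatives. Fractions have 1 library a group and no test: intervals are for counting error only, at 95%, and PCR reads are not independent molecules. The script was tested on simulated data. The members and lists were chosen with earlier results of these data known, and all 6 members are named. Other cytoskeleton genes and the STAU1 transcript were not analysed here.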

Additional observations from a re-analysis of the deposited data

Results flagged for a closer look

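TUBA1B had a log2 ratio of polysome to cytoplasm of −0.30 in KO cells and 0.04 in WT cells, values of opposite sign, with a difference (KO minus WT) of −0.34 (95% counting interval −0.43 to −0.25). The counting interval of the WT value, −0.02 to 0.11, includes 0, so no direction is shown for WT cells. The same difference, −0.34, is that between the ratio of KO to WT in polysomes, −0.29, and in cytoplasm, 0.05. For TUBB the ratio of KO to WT was 0.22 in polysomes and −0.09 in cytoplasm, again of opposite sign, with a difference of 0.31 (0.23 to 0.40). The cytoplasm value lay near the median of all windows, −0.09, and was −0.003 (−0.07 to 0.06) at the main site. With library totals the opposite sign ended for TUBB, with ratios of 0.31 in polysomes and 0.07 in cytoplasm, and the TUBA1B ratios of polysome to cytoplasm were −0.08 in KO cells and 0.33 in WT cells. Neither difference was tested, since each fraction is 1 library, and 11.5% of windows differed by 1.5-fold or more in the same comparison, which neither gene did.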

How the results depend on the processing

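Of 85 counts of members recomputed under the alternatives, 78 stayed within 1.5 times and 7 did not. In the difference between the STAU1 and GFP comparisons, where 0 members passed, 1 passed without a filter on low counts and 1 with DESeq2, and the count was 0 to 1 when single libraries were left out; the cause was not tested. Past 1.5-fold for polysome over cytoplasm, KO cells had 0 members with library totals and 0 at 2-fold, against 1 in the main setting. WT cells had 1 with library totals and 0 at 2-fold, against 3. Among all 4785 windows, in either direction, KO cells had 1295 with library totals and 264 at 2-fold, against 1022. WT cells had 1561 with library totals and 368 at 2-fold, against 1270. The higher fold is stricter by construction, and the cause of the change with library totals was not tested. Of 480 single values, 415 kept their direction and call or moved by less than their error. Another 39, all without a test, moved by more than their error. Calls were lost by 9 tested values (ACTB in the STAU1 comparison and PFN1 in the GFP comparison) and gained by 3 (ACTG1 in the difference of comparisons). A further 14 tested values changed sign, none of them called in either setting. These were ACTB in the GFP comparison with library totals (0.063), and PFN1 in the difference of comparisons without a filter on low counts (0.0026) and over left-out libraries (−0.67 to 0.59). The others were STAU1 input over GFP input: TUBA1B with RLE size factors and with DESeq2 (0.011 each) and with library totals (0.037), and CFL1 with library totals (0.022) and with its main site alone (0.0305). Over left-out libraries that ratio ran from −0.0042 to 0.072 for ACTB, −0.23 to 0.021 for ACTG1, −0.23 to 0.14 for TUBA1B and −0.20 to 0.076 for CFL1. In the fractions, which have no test, 6 values within the fold changed sign. With library totals these were PFN1 for polysome over cytoplasm (0.10 in KO cells, 0.03 in WT cells), TUBB for KO over WT in cytoplasm (0.07) and ACTG1 for the difference between the lines (−0.05). With the main site alone they were CFL1 for KO over WT in cytoplasm (−0.02) and in polysomes (−0.08). With the replicate number as a replicate block the members called were 5 with STAU1, 4 with GFP, 0 in the difference and 0 between inputs, the same counts as without it; deviations of same-numbered libraries correlated at −0.03 between STAU1 IP and STAU1 input, 0.11 between GFP IP and GFP input, 0.31 between the pull-downs, 0.22 between the inputs, −0.41 between STAU1 IP and GFP input and −0.02 between STAU1 input and GFP IP. The signs are mixed, and whether the numbers pair the libraries is not known. The share of the proximal TUBB end could not be computed with windows of 500 nt, which leave that end out. Depth limits PFN1 most, with 58 reads in 1 GFP IP library.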
